A study of Mus musculus with 2 samples.

Results

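The Wnt ligands Wnt9b, Wnt11, Wnt7b and Wnt4 and the R-spondins Rspo1 and Rspo3 were read in single cells of the newborn mouse kidney. They were chosen by name as signals that kidney cells send to each other (wnt9b, wnt11, wnt7b, wnt4, rspo1 and rspo3 in the deposited gene lists), and they are 6 of the 8930 genes listed for both libraries. From C57BL/6J kidney at postnatal day 2 came 2 libraries, 1 from the group exposed to maternal diabetes and 1 from the control group. The series' design text names male mice, and the sources used here do not give how the mothers became diabetic. The labels name both 1 kidney and pooled cells, so the number of animals behind a library is not settled. In both groups whole kidney was broken up with trypsin, and filtered cells were frozen in serum with dimethyl sulfoxide before RNA was read from its 3′ end in droplets.

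Wnt ligands are secreted lipid-bearing proteins that act over short distances through Frizzled receptors and their LRP co-receptors. R-spondins do not signal alone: they bind LGR receptors and take the ubiquitin ligases Znrf3 and Rnf43 off the Frizzled receptors, so that a cell responds more strongly to a Wnt. In the mouse kidney, Wnt9b from the branching ureteric epithelium acts on the nephron progenitors around it, these cells make Wnt4 as they turn into epithelium, Wnt11 marks the ureteric tips, and Wnt7b from the collecting duct shapes the medulla.

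All 6 are protein-coding genes of GRCm38.p6. Wnt9b lies at chr11:103727362-103775272, Wnt11 at chr7:98835084-98854747, Wnt7b at chr15:85535437-85581821, Wnt4 at chr4:137277635-137299501, Rspo1 at chr4:124986401-125009102 and Rspo3 at chr10:29453106-29535867. The 250 bases before a RefSeq transcription start are given for a pair of ureteric ligands that were high in different cells (Wnt11 and Wnt9b) and for the pair that was high in the nephrogenic cells (Wnt4 and Rspo1). The start used is not always the outer end of the gene. The Wnt9b window lies inside the span given above, and the windows of Wnt11 and Rspo1 overlap the beginning of theirs. Each runs 5′ to 3′ on the gene's strand, and capitals mark the letters ATCAAAG, which read CTTTGAT on the other strand and are the core recognised by the LEF and TCF factors of the Wnt pathway.
Wnt11, chr7:98834862-98835111, plus strand: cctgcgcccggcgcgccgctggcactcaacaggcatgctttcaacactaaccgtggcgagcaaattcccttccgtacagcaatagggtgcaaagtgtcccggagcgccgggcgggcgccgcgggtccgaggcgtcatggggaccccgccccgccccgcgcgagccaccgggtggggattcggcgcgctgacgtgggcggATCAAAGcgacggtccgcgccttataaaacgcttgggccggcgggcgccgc
Wnt9b, chr11:103749822-103750071, minus strand: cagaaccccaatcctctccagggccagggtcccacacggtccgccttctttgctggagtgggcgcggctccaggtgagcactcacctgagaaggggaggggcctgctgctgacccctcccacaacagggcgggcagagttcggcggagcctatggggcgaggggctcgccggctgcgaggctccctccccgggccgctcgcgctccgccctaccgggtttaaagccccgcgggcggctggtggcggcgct
Wnt4, chr4:137277385-137277634, plus strand: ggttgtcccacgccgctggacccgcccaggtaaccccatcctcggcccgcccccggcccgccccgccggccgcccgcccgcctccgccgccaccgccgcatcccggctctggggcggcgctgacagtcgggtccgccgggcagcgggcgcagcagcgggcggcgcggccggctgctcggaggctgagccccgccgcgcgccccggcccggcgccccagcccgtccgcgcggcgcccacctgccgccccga
Rspo1, chr4:124986180-124986429, plus strand: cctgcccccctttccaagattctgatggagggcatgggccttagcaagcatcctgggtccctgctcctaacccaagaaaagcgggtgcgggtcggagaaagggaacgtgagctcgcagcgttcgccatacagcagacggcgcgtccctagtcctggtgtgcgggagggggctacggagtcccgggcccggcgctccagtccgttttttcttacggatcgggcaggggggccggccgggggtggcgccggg

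Of these 4 windows only that of Wnt11 held the LEF/TCF letters, at 51 to 45 bases before the start. They are in 3.205% of the 32851 windows of the same length, searched on both strands. The same window held a TATA box (TATAAA) at 29 to 24 bases before the start, letters that are in 12.37% of windows and overlap no LEF/TCF match. A second Wnt11 window in the table, at chr7:98838595-98838844 on the plus strand, held neither set of letters and had 56.8% G and C. The other windows differed in composition, with 85.2% G and C before Wnt4, 72.0% before Wnt9b and 66.8% before Rspo1, against a median of 52.4% over all windows. A match describes the letters of a window and not the binding of a factor.

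The exposed library held 5494 cells and 28381167 UMIs (unique molecular identifiers, 1 per captured transcript), with a median of 4346 UMIs per cell, and the control library held 9071 cells and 39442253 UMIs, with a median of 3523. The authors had split each library into 10 clusters, and the clusters were matched between libraries by marker genes, none of them a ligand of this set. Both libraries were also clustered together without the 6 ligands, which gave 31 clusters, of which 26 could be named by markers and fell into 12 classes. The cluster led by Irx1, a gene of the early nephron's middle part, was left unnamed, since its 10 leading genes held 1 marker of differentiating nephron and 2 of loop of Henle and distal tubule, and it is given by itself. A level is given as CPM, the UMIs of a gene in a class divided by all UMIs of the shared genes there and multiplied by 1000000. Because only 3′ ends were counted, levels are compared between cells and not between genes. With 1 library per group there was no test, and every 95% interval covers counting error only and leaves out the spread between cells and between animals. The libraries shared 14 cell barcodes, and 12.6% of exposed and 16.98% of control cells had over 25% mitochondrial UMIs.

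The broad clusters did not hold the same cells in both libraries, and this touches the ureteric ligands. Of the ureteric bud and collecting duct-like cells of the joint clustering, 64 of 275 exposed cells (23.3%, exact interval 18.4 to 28.7%) were in the authors' distal tubule clusters, against 3 of 489 control cells (0.613%, 0.127 to 1.78%). In the exposed library the authors' distal, intercalated and collecting duct-like cluster detected 12 ureteric and collecting duct markers, and in the control library 5. By the joint clustering it held 48 exposed and 0 control ureteric bud and collecting duct-like cells. The collecting duct part of its name thus holds for the exposed library only. Values by the authors' clusters are therefore given beside values by joint classes and over all cells.

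For each ligand the joint class with the highest level was the same in both libraries. By the authors' clusters this held for Wnt4, Rspo1 and Rspo3, while Wnt9b, Wnt11 and Wnt7b were highest in different clusters of the exposed and control libraries. Wnt9b was in ureteric bud and collecting duct-like cells. Wnt7b was in collecting duct-like cells and in loop of Henle and distal tubule-like cells, and Wnt11 was in ureteric cells and stroma. Wnt4 and Rspo1 were in the nephron progenitor-like and differentiating nephron-like cells, and Rspo3 was in stroma.

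**Figure D1:**
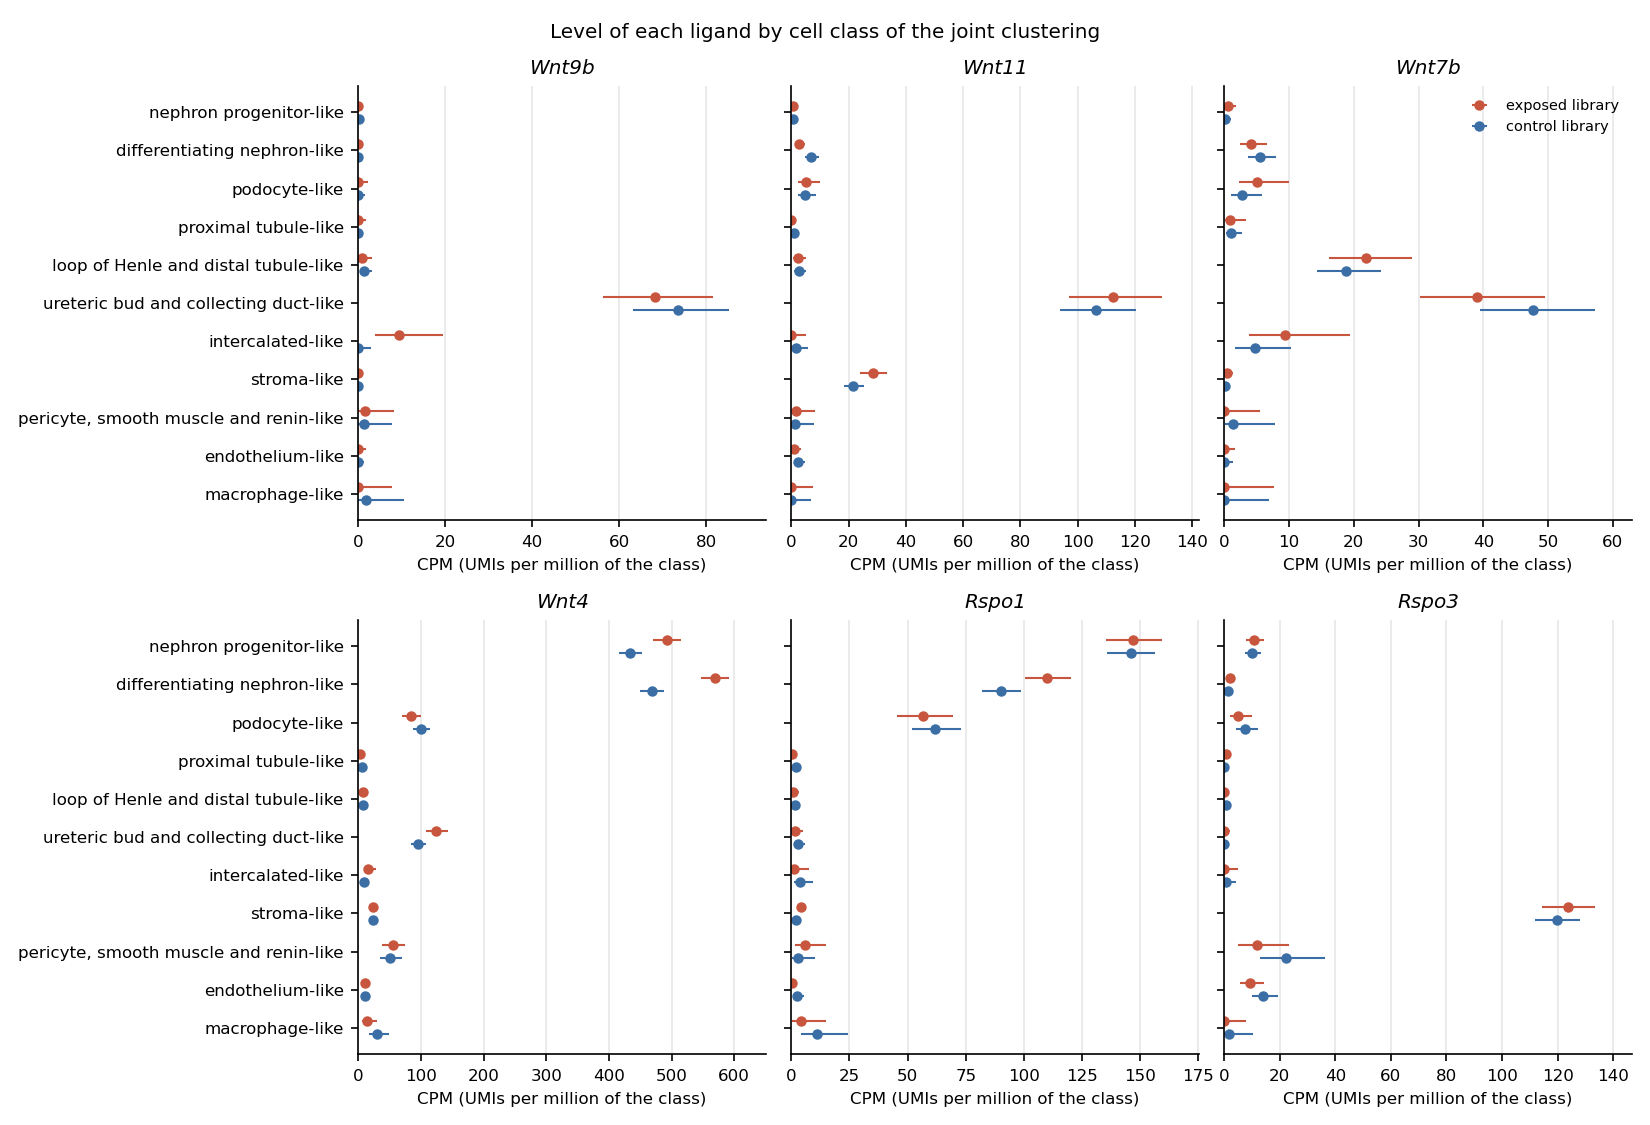
Level of each ligand in CPM (x axis, a scale of its own for each ligand) in 11 cell classes of the joint clustering (y axis), in the exposed library (red) and the control library (blue). Points are CPM of the class and bars are 95% Poisson intervals, and the neutrophil-like class, with 13 exposed and 28 control cells, and the unnamed clusters are not drawn. The class with the highest level was the same in both libraries for all 6 ligands.

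Wnt9b, the ureteric signal to nephron progenitors, stood at 68.2 CPM (95% Poisson interval 56.4 to 81.7) in exposed ureteric bud and collecting duct-like cells and at 73.6 CPM (63.2 to 85.2) in control ones. The ratio was 0.926 (0.727 to 1.18), an interval that includes 1. These cells held 90.0% of the exposed and 96.2% of the control library's Wnt9b UMIs while making up 5.01% of exposed and 5.39% of control cells. Nearly all Wnt9b UMIs were thus in this class in both libraries, and 27.6% of its exposed and 25.2% of its control cells had at least 1 Wnt9b UMI. Within the class, Wnt9b was at 89.5 CPM in exposed and 100.05 CPM in control cells of the cluster led by Aqp2, the water channel of principal cells. In the cluster with Ret, the receptor of the ureteric tip, it was at 45.1 CPM in exposed and 47.8 CPM in control cells. Wnt9b was therefore found from tip to duct, at the higher level in the duct cluster, where the intervals of the 2 clusters did not overlap in either library (70.6 to 112 against 31.8 to 62.2 CPM exposed, 82.4 to 120.4 against 36.4 to 61.6 CPM control).

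Wnt11, a ligand of the ureteric tip, differed strongly within the ureteric class. It was at 234 CPM (202 to 269.8) in exposed and 207 CPM (183 to 234) in control cells of the Ret cluster, and at 1.16 CPM in exposed and 2.68 CPM in control cells of the Aqp2 cluster. The Ret cluster alone held 40.7% of the exposed and 44.9% of the control library's Wnt11 UMIs. The Ret and Aqp2 clusters thus differed in Wnt11 in both libraries.

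A second source of Wnt11 was stroma. Its level was 28.5 CPM (24.1 to 33.3) in exposed and 21.7 CPM (18.4 to 25.4) in control stroma-like cells, a ratio of 1.31 (1.04 to 1.65). With every cell thinned to 2000 UMIs that ratio was 1.21 (0.874 to 1.67), an interval that includes 1. The cluster led by Nts, Penk and Alx1 held 77 of the 153 exposed and 63 of the 155 control UMIs of stromal Wnt11, and its level was at 144 CPM (114 to 179.9) in exposed and 101 CPM (77.6 to 129) in control cells, a ratio of 1.42 (1.01 to 2.02). With the 5 cells of each library richest in Wnt11 left out, that ratio was 1.47 (0.988 to 2.19), and at 2000 UMIs per cell it was 1.62 (0.98 to 2.69), so the interval then includes 1. The other 3 stroma-like clusters had between 12.1 and 22.6 CPM of Wnt11 over both libraries. In the Irx1 cluster Wnt11 was at 50.04 CPM in exposed and 42.0 CPM in control cells, and single cells carried much of it: 5 cells held 50 of its 93 UMIs in the exposed library and 45 of 82 in the control library.

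Wnt7b, which acts in medulla formation, was at 39.03 CPM (30.2 to 49.6) in exposed and 47.7 CPM (39.4 to 57.2) in control ureteric bud and collecting duct-like cells, a ratio of 0.818 (0.596 to 1.11). In the Aqp2 cluster it was at 62.8 CPM in exposed and 85.8 CPM in control cells, with a ratio of 0.732 (0.514 to 1.03). A small collecting duct-like cluster of 18 exposed and 44 control cells was at 137 CPM in the exposed and 157 CPM in the control library, from 5 exposed and 12 control UMIs. At 2000 UMIs per cell the ratio of the class was 1.40 (0.819 to 2.38), on the other side of 1, so these libraries give no direction for Wnt7b. Loop of Henle and distal tubule-like cells had 21.9 CPM (16.2 to 28.9) in the exposed and 18.7 CPM (14.3 to 24.1) in the control library, and differentiating nephron-like cells 4.14 CPM in the exposed and 5.48 CPM in the control library. In the Slc12a1 cluster, whose lead gene is the salt transporter of the thick ascending limb, Wnt7b was at 28.3 CPM in exposed and 26.4 CPM in control cells. In the Irx1 cluster it was at 20.98 CPM in exposed and 28.2 CPM in control cells. Wnt7b therefore had senders outside the collecting duct in both libraries.

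Wnt4, which drives progenitors to form epithelium, was highest in a cluster of differentiating cells. The cluster led by Npy, Lhx1 and Hes5, genes of the early nephron, had 872 CPM (835 to 909.5) in exposed and 742 CPM (711 to 774) in control cells. The 2 progenitor-like clusters, led by Cited1 and Six2, had 467 and 517 CPM in the exposed library and 362 and 501 CPM in the control library, the second value of each pair being that of the cycling cluster. The level was lower again in the Osr2 cluster (193 CPM exposed, 133 CPM control), in the Fgf8 cluster (119 CPM exposed, 94.3 CPM control) and in the Irx1 cluster (75.3 CPM exposed, 85.6 CPM control). The Npy cluster held 41.7% of all Wnt4 UMIs of the exposed library and 37.2% of those of the control library, and its cells were 303 of 5494 exposed and 397 of 9071 control cells.

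Between the libraries, Wnt4 was at 569 CPM (546 to 591) in exposed and 468 CPM (449.8 to 487) in control differentiating nephron-like cells, a ratio of 1.21 (1.15 to 1.28). In nephron progenitor-like cells it was at 492 CPM (470.5 to 514.6) in the exposed and 434 CPM (417 to 452) in the control library, a ratio of 1.13 (1.07 to 1.204). At 2000 UMIs per cell the ratio was 1.18 (1.06 to 1.33) in differentiating and 1.26 (1.13 to 1.41) in progenitor-like cells. The difference was not equal over the clusters: the ratio was 1.29 (1.17 to 1.41) in the Cited1 cluster, 1.18 (1.11 to 1.248) in the Npy cluster, 1.03 (0.952 to 1.12) in the cycling progenitor cluster and 0.88 (0.698 to 1.11) in the Irx1 cluster. All these ratios are short of 1.5-fold. By the levels given above, Wnt4 was also higher in the exposed library in the Osr2 and Fgf8 clusters, with the largest fold in the Osr2 cluster. The Npy cluster, like the cycling progenitor cluster, detected 6 of 6 markers of cycling cells. At 2000 UMIs per cell, 46.7% of exposed and 40.1% of control progenitor-like cells had a Wnt4 UMI, and in the Npy cluster 62.7% of exposed and 62.3% of control cells.

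Wnt4 was also present outside the progenitor-like, differentiating and Irx1 clusters. In the Aqp2 collecting duct cluster it was at 205 CPM (175 to 237) in exposed and 127 CPM (107 to 149.5) in control cells, a ratio of 1.61 (1.29 to 2.03), where 13.9% of the genes with at least 20 UMIs were past 1.5-fold in either direction. That difference rested on few cells, since 5 exposed cells held 65 of the 176 UMIs, and without the 5 richest cells of each library the ratio was 1.22 (0.934 to 1.59). At 2000 UMIs per cell 27.3% of the exposed and 23.1% of the control cells of this cluster had a Wnt4 UMI. In the Penk stroma cluster Wnt4 was at 187 CPM (152 to 227) in exposed and 179.6 CPM (148 to 216) in control cells, against 2.41 to 13.3 CPM in the other 3 stroma-like clusters over both libraries. Few cells carried part of the stromal Wnt4. Over all stroma-like cells, 129 exposed and 168 control UMIs became 82 and 133 without the 5 richest cells of each library. The ratio there went from 1.02 to 0.819 (0.615 to 1.09). In the podocyte-like cluster led by Pcp4, Wnt4 was at 155 CPM in exposed and 172 CPM in control cells.

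**Figure D2:**
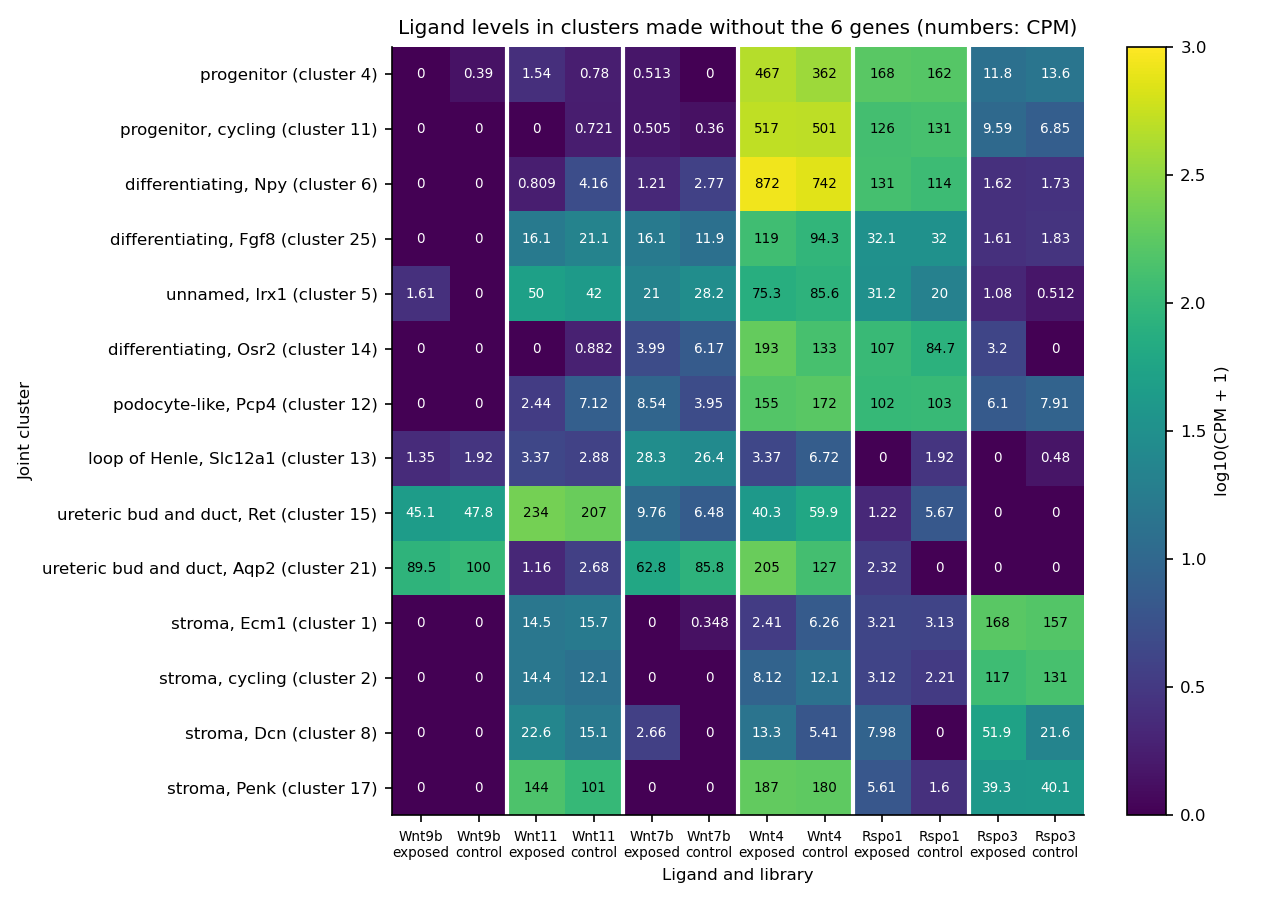
Level of each ligand in 14 clusters of the joint clustering (rows, each with its number and its class or, for the Irx1 cluster, unnamed), with the exposed library left of the control library for each ligand. Colour is log10 of CPM plus 1 and the printed numbers are CPM. Wnt4 was highest in the Npy cluster (872 exposed, 742 control), Wnt11 in the Ret cluster (234 exposed, 207 control) and Rspo3 in the Ecm1 stroma cluster (168 exposed, 157 control).

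Rspo1 was high where Wnt4 was, but was highest in the progenitor-like cells. It was at 147 CPM (135 to 159) in exposed and 146 CPM (136 to 156) in control nephron progenitor-like cells, a ratio of 1.01 (0.902 to 1.12). In differentiating nephron-like cells it was at 109.99 CPM (100.35 to 120.3) in the exposed and 90.2 CPM (82.2 to 98.8) in the control library, a ratio of 1.22 (1.07 to 1.39). Podocyte-like cells followed with 56.7 CPM (45.5 to 69.7) in the exposed and 61.6 CPM (51.8 to 72.8) in the control library. The order progenitor, differentiating, podocyte was thus the same in both libraries, with intervals that did not overlap. By cluster, Rspo1 was at 168 CPM in exposed and 162 CPM in control cells of the Cited1 cluster, at 131 and 114 CPM in exposed and control cells of the Npy cluster, and at 31.2 and 19.98 CPM in exposed and control cells of the Irx1 cluster. The ratio in the Irx1 cluster was 1.56 (1.02 to 2.41), where 8.12% of genes were past 1.5-fold in either direction, and 0.899 (0.439 to 1.81) at 2000 UMIs per cell, on the other side of 1. In the Pcp4 podocyte-like cluster it was at 102.5 CPM in exposed and 102.8 CPM in control cells.

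Detection of ligands in the same cell was set beside their share in the whole class. Among progenitor-like cells with a Wnt4 UMI, 221 of 407 exposed cells (54.3%) and 290 of 530 control cells (54.7%) also had an Rspo1 UMI, close to the 55.0% of all exposed and 51.5% of all control progenitor-like cells with one. Among differentiating nephron-like cells with a Wnt4 UMI these were 187 of 315 exposed (59.4%) and 215 of 404 control cells (53.2%), against 43.3% of all exposed and 35.8% of all control cells of that class. Among ureteric bud and collecting duct-like cells with a Wnt7b UMI, 21 of 51 exposed (41.2%) and 36 of 76 control cells (47.4%) also had Wnt9b, against 27.6% of all exposed and 25.2% of all control cells of the class. In the same class 4 of 66 exposed (6.06%) and 3 of 118 control cells (2.54%) with a Wnt11 UMI had Wnt7b, against 18.5% of all exposed and 15.5% of all control cells. Shared detection also depends on depth, which was greater in the exposed library. The differentiating and ureteric classes also pool clusters that differ in these ligands, and shared detection within single clusters was not tested.

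Rspo3 was the R-spondin of the stroma. It was at 124 CPM (114 to 133) in exposed and 119.6 CPM (112 to 128) in control stroma-like cells, a ratio of 1.03 (0.933 to 1.15), and these cells held 87.6% of the exposed and 83.9% of the control library's Rspo3 UMIs. The Ecm1 cluster had 168 CPM in exposed and 157 CPM in control cells, the cycling stroma cluster 117 and 131 CPM in exposed and control cells, and the Penk cluster 39.3 and 40.1 CPM in exposed and control cells. In stroma cells with a UMI of a nephrogenic-zone gene (Foxd1, Ntn1 or Fibin) and none of a medullary gene, Rspo3 was at 186 CPM (149.7 to 228) in 140 exposed cells and 217 CPM (183 to 254) in 254 control cells. In the cells with the opposite pattern (Penk, Ecm1 or Lef1) it was at 56.5 CPM (45.4 to 69.5) in 442 exposed and 58.5 CPM (49.0 to 69.3) in 824 control cells. Stroma cells with both kinds of gene, the largest set, were at 153 CPM in 729 exposed and 140.2 CPM in 1102 control cells, and cells with neither at 77.5 CPM in 103 exposed and 110.3 CPM in 202 control cells. The cluster with the most Rspo3, called the Ecm1 cluster here, was led by Fibin, a gene of the nephrogenic-zone list. Ecm1, a gene of the medullary list, came next. The Penk cluster, with the least Rspo3 of the exposed stroma-like clusters, had the most stromal Wnt4 and Wnt11.

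The stroma-like cluster led by Dcn and Col14a1, matrix genes of fibroblasts, differed between the libraries in Rspo3, with 51.9 CPM (36.9 to 70.9) in exposed and 21.6 CPM (13.2 to 33.4) in control cells. These were 39 UMIs in 260 exposed cells and 20 UMIs in 408 control cells, a ratio of 2.40 (1.37 to 4.34), where 14.5% of genes were past 1.5-fold in either direction. Without the 5 richest cells of each library the ratio was 2.201 (1.07 to 4.73), and at 2000 UMIs per cell 4.71 (1.89 to 13.98), so the higher level in the exposed library was kept in both. Over all joint clusters, 51 pairs of a ligand and a cluster had at least 20 UMIs. Of these, 8 were higher and 7 lower in the exposed library past 1.5-fold, with 9 intervals above 1 and 1 below. The 8 include Rspo3 in the Dcn cluster, Wnt4 in the Aqp2 cluster and Rspo1 in the Irx1 cluster. Of all genes, 14.5%, 13.9% and 8.12% were past that fold in either direction in these clusters. No share of all genes was taken over all clusters or for the intervals, so these counts show no shift of the ligands as a set. Nephron progenitor-like cells had little Rspo3, with 10.7 CPM (7.70 to 14.4) in the exposed and 10.1 CPM (7.60 to 13.2) in the control library. No Rspo3 UMI was found in 275 exposed or 489 control ureteric bud and collecting duct-like cells, which allows up to 1.75 CPM in the exposed and 1.23 CPM in the control library by the limit of 3 counts.

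The ligands were set beside all genes with at least 20 UMIs in the same class. In the authors' clusters, 2 of the 6 ligands were past 1.5-fold in their main class, the one with the highest mean of both libraries' CPM, Wnt7b higher and Wnt9b lower in the exposed library. For Wnt9b the main class was nearly a tie, with a mean of 8.11 CPM in the nephrogenic and ureteric-like and 7.71 CPM in the distal class, and likewise for Wnt11, with 22.8 CPM in the nephrogenic and ureteric-like and 22.5 CPM in the stroma-like class. Of those genes, 14.6% were past 1.5-fold in either direction in the distal tubule, intercalated and collecting duct-like class, the main class of Wnt7b, 13% higher and 1.63% lower in the exposed library. In the nephrogenic and ureteric-like class, that of Wnt9b, Wnt11, Wnt4 and Rspo1, it was 7.55% (1.7% higher and 5.84% lower), and in the stroma-like class, that of Rspo3, 4.62%. In the joint classes 0 of 6 ligands were past 1.5-fold in their main class, against 4.7% of genes in progenitor-like, 4.2% in differentiating nephron-like, 7.62% in ureteric bud and collecting duct-like and 4.51% in stroma-like cells. Of the 27 pairs of a ligand and a named joint class with at least 20 UMIs, 2 were higher and 5 lower in the exposed library past 1.5-fold. Higher were Wnt4 in intercalated-like and Rspo1 in stroma-like cells. Lower were Rspo3 in pericyte and endothelium-like cells, Wnt4 in macrophage-like and proximal tubule-like cells and Wnt11 in differentiating nephron-like cells. In these 7 pairs the class held at most 6.32% of the ligand's UMIs in either library, and only the interval of Wnt11 left out 1, with 12 UMIs in the exposed and 36 in the control library and a ratio of 0.392 (0.186 to 0.771). Without the 5 richest cells of each library that ratio was 0.389 (0.11 to 1.12), and at 2000 UMIs per cell it came from 3 exposed and 4 control UMIs. Of all genes, 14.1% were past 1.5-fold in either direction in intercalated-like, 16.3% in pericyte, smooth muscle and renin-like, 8.0% in endothelium-like, 21.9% in macrophage-like and 7.31% in proximal tubule-like cells.

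The 2 differences by the authors' clusters were not found when ureteric cells were grouped across libraries. Wnt7b was at 27.96 CPM (22.4 to 34.5) in the exposed and 11.1 CPM (7.56 to 15.6) in the control distal, intercalated and collecting duct-like cluster, a ratio of 2.53 (1.67 to 3.92). In the nephrogenic and ureteric-like cluster it was at 7.46 CPM in the exposed and 14.2 CPM in the control library, a ratio of 0.525 (0.41 to 0.666). Wnt9b was at 6.11 CPM (4.82 to 7.64) in the exposed and 10.1 CPM (8.70 to 11.7) in the control nephrogenic and ureteric-like cluster, a ratio of 0.605 (0.458 to 0.794). In the distal cluster Wnt9b had 48 UMIs in the exposed and 0 in the control library, at least 14.9-fold higher by the limit of 3 counts per library. The control cluster held no collecting duct-like cells of the joint clustering, so the values of Wnt7b and Wnt9b there compare different cells. Over all cells Wnt7b had a ratio of 0.899 (0.747 to 1.08) and Wnt9b of 0.971 (0.77 to 1.22).

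**Figure D3:**
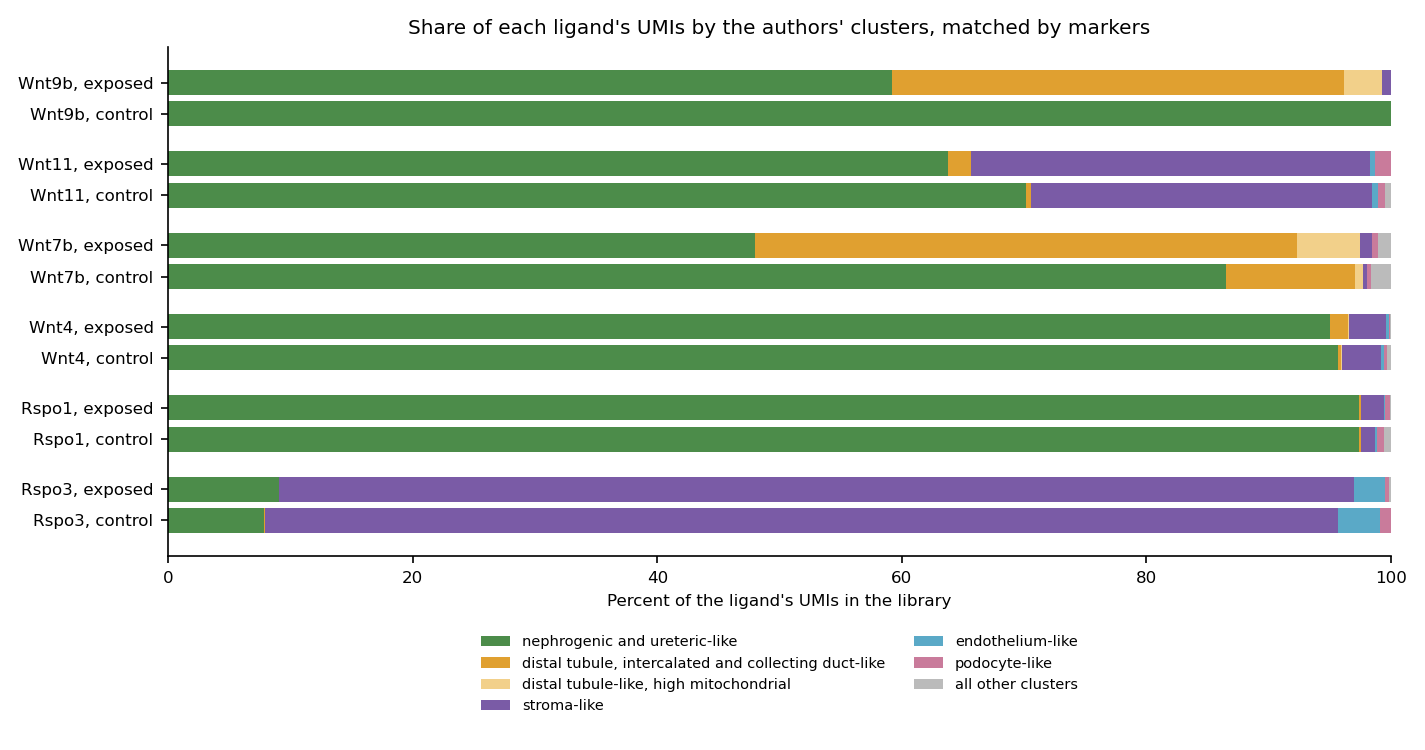
Percent of each ligand's UMIs (x axis) that lay in each of the authors' clusters, matched between libraries by markers, for the exposed library above the control library. The distal, intercalated and collecting duct-like cluster held 36.9% of exposed and 0% of control Wnt9b UMIs, and 44.4% of exposed and 10.6% of control Wnt7b UMIs. In the control library this cluster held no collecting duct-like cells of the joint clustering.

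For the other 4 ligands the authors' clusters and the joint classes gave closer values. Wnt4 was at 390.0 CPM (379 to 401) in the exposed and 299 CPM (291 to 307) in the control nephrogenic and ureteric-like cluster, a ratio of 1.31 (1.26 to 1.36), and Rspo1 at 96.7 CPM (91.3 to 102.3) in the exposed and 79.0 CPM (75.0 to 83.2) in the control library, a ratio of 1.22 (1.13 to 1.32). Both ratios were above those within the joint progenitor-like class, and that of Rspo1 was close to its ratio in the differentiating class. The broad cluster mixes progenitor-like and differentiating cells, and of all cells 11.2% of exposed and 10.4% of control cells were nephron progenitor-like and 10.3% of exposed and 8.47% of control cells differentiating nephron-like. The part of cell shares and of levels per cell in the ratio of the broad cluster was not tested. Wnt11 had a ratio of 1.1003 (0.944 to 1.28) in the nephrogenic and ureteric-like cluster, and Rspo3 one of 0.977 (0.882 to 1.08) in the stroma-like cluster.

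Over all cells, without regard to class, Wnt4 was at 183 CPM in the exposed and 147 CPM in the control library, a ratio of 1.249 (1.203 to 1.297). Rspo1 was at 44.3 CPM in the exposed and 38.1 CPM in the control library (1.16, 1.08 to 1.255), and Wnt11 at 16.7 and 14.5 CPM in the exposed and control libraries (1.15, 1.02 to 1.30). Rspo3 was at 26.9 CPM in the exposed and 25.97 CPM in the control library (1.04, 0.942 to 1.14). For 3 of the 6 ligands the interval over all cells lay above 1, and for none below 1. The share of all genes with such an interval over all cells was not taken. The count therefore has no reference and shows no shift of the ligands as a set.

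**Figure D4:**
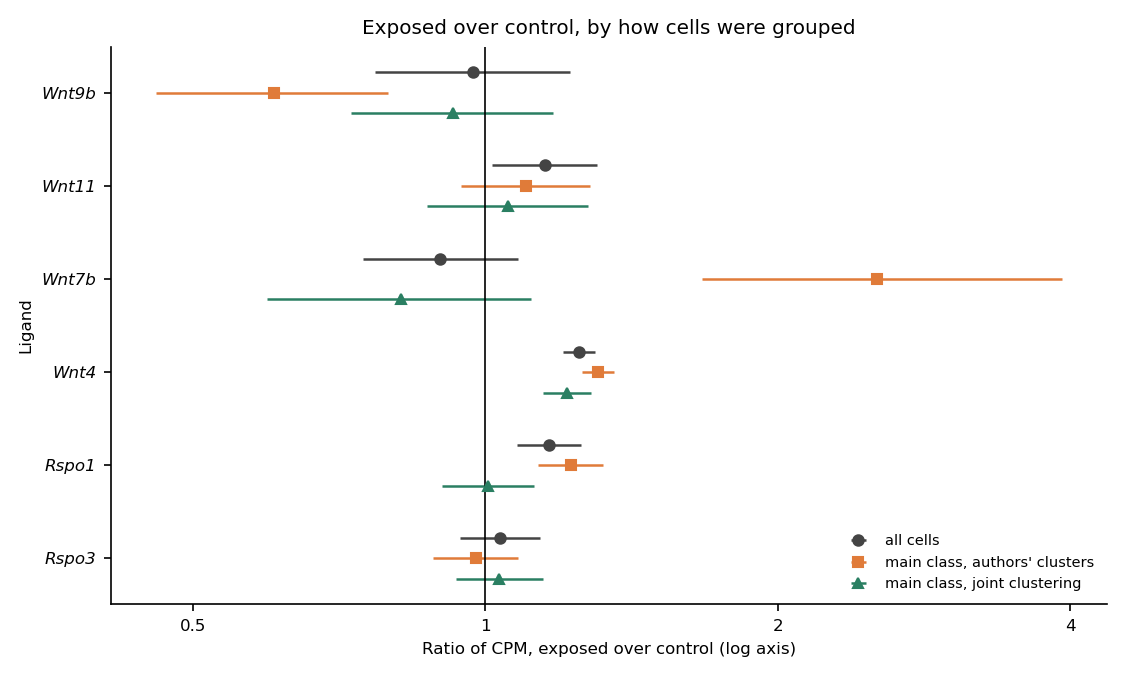
Ratio of CPM, exposed over control (x axis, log scale), for each ligand over all cells (circles), in its main class by the authors' clusters (squares) and in its main class by the joint clustering (triangles), with 95% exact conditional binomial intervals for counting error. Wnt7b and Wnt9b are apart in the authors' clusters only (2.53 and 0.605), and Wnt4 is above 1 in all 3 groupings (1.249, 1.31 and 1.21).

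Cells that should lack the ligands gave the background. At 2000 UMIs per cell Wnt4 was detected in 3.00% of exposed and 3.50% of control macrophage-like cells, and in 0.983% of exposed and 2.05% of control endothelium-like cells. Wnt9b and Wnt7b were at 0 UMIs in endothelium-like cells of both libraries, and Wnt11 was detected in 0% of exposed and 0.41% of control ones at that depth. Rspo3 was not absent there, with 20 exposed and 38 control UMIs. In the authors' endothelium-like clusters its mean over both libraries was 11.3 CPM, close to its level in progenitor-like cells. Endothelium-like cells are therefore no clear background for Rspo3. Few cells carried the macrophage-like Wnt4. Before thinning, its 7 exposed and 16 control UMIs became 0 and 2 without the 5 richest cells of each library. Leaving out cells with a hybrid doublet score over 1 gave 1 exposed and 11 control UMIs. Of macrophage-like cells, 20 exposed and 23 control cells were in the authors' nephrogenic and ureteric-like clusters. The macrophage-like share is thus an uncertain background for Wnt4, and its source was not tested. The median UMIs per cell were 3495 in exposed and 2656 in control macrophage-like cells, and 5554.5 in exposed and 4498 in control progenitor-like cells. The Wnt4 of loop of Henle and distal tubule-like cells (1.30% of exposed and 1.205% of control cells at 2000 UMIs) was between the macrophage-like and endothelium-like shares in the exposed library and below both in the control library, and that of the collecting duct and Penk stroma clusters was above it.

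The genes that carry, receive and damp these ligands were read from lists of the pathway. Wls, the carrier that takes Wnt proteins to the cell surface, was at 177 CPM in exposed and 159 CPM in control ureteric bud and collecting duct-like cells. Among the 4 of 15 other Wnt genes listed for both libraries, Wnt5a, a ligand that mostly acts without beta-catenin, was at 44.2 CPM in exposed and 49.5 CPM in control loop of Henle and distal tubule-like cells, and Wnt5b at 38.2 and 52.3 CPM in exposed and control podocyte-like cells. Wnt16 in podocyte-like cells was at 28.01 CPM in the exposed and 15.5 CPM in the control library, a ratio of 1.80 (1.13 to 2.90), where 8.2% of genes were past 1.5-fold; it was singled out after its values were seen. Wnt6 had 12 exposed and 8 control UMIs in stroma-like cells (1.99, 0.749 to 5.62).

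On the receiving side, Lgr4, the R-spondin receptor, was at 173 CPM in exposed and 195 CPM in control proximal tubule-like cells, at 157 and 190.2 CPM in exposed and control podocyte-like cells and at 161 and 157.5 CPM in exposed and control differentiating nephron-like cells. It was at 23.2 CPM in exposed and 27.3 CPM in control nephron progenitor-like cells, the class with the most Rspo1. Of the 12 Wnt receptors with at least 20 UMIs in progenitor-like cells, 1 was higher and 1 lower in the exposed library past 1.5-fold, Fzd5 with 5.85 against 3.37 CPM and Fzd1 with 6.36 against 10.1 CPM (exposed against control). Of all genes there, 1.6% were higher and 3.1% lower past that fold. The interval of both ratios included 1 (0.897 to 3.41 for Fzd5, 0.375 to 1.03 for Fzd1). Ryk, a receptor outside the Frizzled family, was at 168 CPM in exposed and 161 CPM in control progenitor-like cells, and the co-receptor Lrp6 at 136.8 CPM in exposed and 139 CPM in control loop of Henle and distal tubule-like cells. In ureteric bud and collecting duct-like cells the co-receptor Lrp5 was lower in the exposed library, at 15.7 CPM against 27.6 CPM in the control library, a ratio of 0.571 (0.351 to 0.904). It was 1 of 12 measured Wnt receptors past 1.5-fold there, against 7.62% of all genes in either direction. Lgr4 was thus higher in the differentiating nephron-like class, which also had Rspo1, than in the progenitor-like class.

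Of 8 measured secreted inhibitors, 2 were highest in loop of Henle and distal tubule-like cells, 2 in pericyte, smooth muscle and renin-like cells, 2 in progenitor-like cells (Frzb and Notum), 1 in podocyte-like and 1 in stroma-like cells. Sostdc1, an inhibitor that binds LRP co-receptors and BMPs, was at 1501 CPM in exposed and 1448 CPM in control loop of Henle and distal tubule-like cells. Sfrp2 and Dkk2 were highest in pericyte, smooth muscle and renin-like cells, Sfrp2 at 837 CPM in exposed and 664 CPM in control cells (1.26, 1.11 to 1.43) and Dkk2 at 580.3 and 595 CPM in exposed and control cells. In progenitor-like cells 2 of the 8 were higher and 2 lower in the exposed library past 1.5-fold, against 1.6% of all genes higher and 3.1% lower there. Notum, which removes the lipid from Wnt proteins and is itself a Wnt target, was at 12.98 CPM in the exposed and 5.80 CPM in the control library (2.24, 1.40 to 3.61), and Dkk2 at 9.67 and 6.18 CPM in exposed and control cells (1.56, 0.956 to 2.57). Dkk1, which blocks LRP co-receptors, was at 2.29 CPM in the exposed and 6.93 CPM in the control library (0.331, 0.14 to 0.697), from 9 and 37 UMIs in the exposed and control libraries. Sostdc1 had 9 UMIs in the exposed and 22 in the control library (0.556, 0.225 to 1.26). In differentiating nephron-like cells 1 of the 8 was higher and 1 lower, against 1.77% of all genes higher and 2.43% lower. These were Notum, at 7.82 CPM in the exposed and 4.70 CPM in the control library (1.67, 0.959 to 2.94), and Dkk2, at 6.44 CPM in the exposed and 10.2 CPM in the control library (0.633, 0.385 to 1.02). In stroma-like cells Sostdc1 was at 2.98 CPM in the exposed and 8.83 CPM in the control library (0.337, 0.182 to 0.591). It was 1 of 7 measured inhibitors past 1.5-fold there, against 1.32% of all genes higher and 3.19% lower.

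Targets of beta-catenin signalling were read as a list of 14, 8 of which were listed for both libraries. In progenitor-like cells 2 of 8 were higher in the exposed library past 1.5-fold and 0 lower, with a median log2 ratio of 0.07, against -0.02 for all genes, of which 4.7% were past 1.5-fold in either direction. Beside Notum this was Sp5, a factor induced by Wnt signalling, from 46 exposed and 19 control UMIs. In differentiating nephron-like cells 1 of 7, Notum, was higher and 0 lower, with a median log2 ratio of 0.44, against -0.01 for all genes, of which 4.2% were past 1.5-fold. In stroma-like cells 2 of 7 were higher and 0 lower, with a median log2 ratio of -0.01, against 0.01 for all genes, of which 1.32% were higher and 3.19% lower. These were Sp5, at 4.28 CPM in the exposed and 1.82 CPM in the control library (2.35, 1.14 to 5.05), and Cd44, a cell surface receptor of hyaluronan, from 15 exposed and 10 control UMIs (1.99, 0.837 to 4.96). Ccnd1, the cell cycle gene of the list with the highest level, was at 661 CPM in exposed and 641.5 CPM in control differentiating nephron-like cells (1.03, 0.979 to 1.08). The highest levels of the beta-catenin core were those of Csnk1a1, a kinase of beta-catenin, at 750.0 CPM in exposed and 753 CPM in control podocyte-like cells, and of Ctnnb1, beta-catenin itself, at 535 CPM in exposed and 549.7 CPM in control endothelium-like cells. The 14 measured genes of this list held 1 gene past 1.5-fold in progenitor-like cells, against the same 4.7% of all genes, Dvl3, a relay downstream of Frizzled, at 13.2 CPM in the exposed and 23.4 CPM in the control library (0.565, 0.401 to 0.787). In stroma-like cells it was Dvl1, also a relay, at 20.6 CPM in the exposed and 12.5 CPM in the control library (1.66, 1.24 to 2.21), and in ureteric bud and collecting duct-like cells Pygo1, a partner of beta-catenin, at 18.1 CPM in the exposed and 10.3 CPM in the control library (1.76, 1.003 to 3.10). Of all genes, 4.51% were past 1.5-fold in either direction in stroma-like and 7.62% in ureteric bud and collecting duct-like cells.

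The genes whose pattern was most like each ligand were ranked by Pearson correlation of log2(CPM + 10), here with the levels of both libraries as 57 points, 1 for each joint cluster and library with at least 20 cells. The points share libraries, depth and the clusters' own genes, so the values describe likeness only. Wnt9b was most like Mcoln3 (0.938), Srcin1 and Elf5, Wnt11 most like Sct (0.828), Cxcl14 and Stra6, and Wnt7b most like Cgn (0.811), Grhl2 and Rgl3. Rspo1 was the gene most like Wnt4 (0.781), while Rspo1 itself was most like Gxylt2 (0.921), Tekt1 and Uncx. Rspo3 was most like Meis1 (0.897), a stromal transcription factor, Snai2 and Emilin1. Over the authors' clusters as 20 points the first genes were Nipal1 for Wnt9b (0.958), Prrx2 for Wnt11 (0.964), Mcoln3 for Wnt7b (0.981), Hes5 for Wnt4 (0.956), Npy for Rspo1 (0.977) and Fxyd7 for Rspo3 (0.984).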

How the data were processed

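Droplet libraries of 1 exposed and 1 control kidney sample were analysed. Cell Ranger 2.2.0 and genome build mm10 are named in the submitters' processing notes. The authors deposited UMI counts per gene and cell, whole numbers with no normalization, for 9545 genes in the exposed and 9590 in the control library, with gene names in lower case that were matched to RefSeq symbols. Per the file headers, the authors' table of cells gives a mitochondrial percent per cell, a hybrid doublet score and a cluster number. The authors' deposited log2 values were not used for results. No doublets were removed, and leaving out the 277 exposed and 584 control cells with a hybrid doublet score over 1 was tried as an alternative.

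Counts were summed over the cells of a class and divided by the class total over the 8930 shared genes. Ratios have exact conditional binomial intervals, levels exact Poisson intervals and shares exact (Clopper-Pearson) intervals, at 95%. The interval code was tested on simulated data. For the joint clustering, 2000 variable genes other than the ligands, 30 principal components, 15 neighbours and the Leiden method at resolution 1 were used. A cluster was named by markers found in at least 10% of its cells at 2 times the level of the other cells, of 16 marker lists, and not where its 10 leading genes held more markers of another class. Cells thinned to 2000 UMIs left out those below, keeping 4965 exposed and 7587 control cells. Genes counted as past the fold had at least 20 UMIs over both libraries in the class. Promoter windows are from RefSeq on GRCm38.p6, with a window for 4 of the 6 ligands.

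Genes named are the 6 ligands, the pathway genes with the 3 highest levels of each list, those past 1.5-fold in a joint main class of a ligand, and the genes most like each ligand. Other genes, such as Wnt16 and Frzb, were named after their values were seen. The ligands and lists were chosen with earlier results of these data known. Analyses used Python 3.11.15, numpy 2.4.6, scipy 1.17.1, pandas 2.3.3, scikit-learn 1.9.0 and python-igraph 0.11.9.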

Additional observations from a re-analysis of the deposited data

Results flagged for a closer look

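Beside the Irx1 cluster, 4 clusters of the joint clustering, mostly cells rich in mitochondrial UMIs, were unnamed and are in no count of ligands by class, and Wnt4 stood above the limit of a count of 0 there, at 53.9 CPM in exposed cells and 37.2 CPM in control cells.

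Some pathway genes were listed for 1 library only and so entered no comparison; their UMIs were above the limit of 3 counts, and their level in the other library was not analysed here. Listed for the exposed library were the receptor genes Fzd10 with 112 UMIs and Ror1 with 262, the inhibitors Dkk3 with 189 and Wif1 with 49, the transcription factor Tcf7 with 224 and the target Nkd2 with 168, of which 72.6% were in stroma-like cells. Listed for the control library were the receptor genes Fzd6 with 438 UMIs and Fzd8 with 290, the R-spondin receptor Lgr5 with 174, of which 41.95% were in differentiating nephron-like cells, Axin1 with 825 and the target Axin2 with 219.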

How the results depend on the processing

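No paired analysis was possible because each group has 1 library and the labels give no replicate numbers. Alternatives for the joint classes and the ratio over all cells were added after the data were seen. Of 60 alternative ratios by the authors' clusters, 52 stayed within the counting interval, and of 48 by the joint classes 47 did. Direction was checked only for main ratios past 1.5-fold, and some others crossed 1 within their interval. Rspo1 in joint progenitor-like cells did so, at 1.01 with all cells and 0.973 at 2000 UMIs per cell. Log2 ratios by the authors' clusters were 1.34 for Wnt7b, -0.72 for Wnt9b, 0.38 for Wnt4 and 0.29 for Rspo1. With joint classes they were -0.29 for Wnt7b, the other direction, -0.11 for Wnt9b, 0.28 for Wnt4 and 0.0095 for Rspo1. Over all cells they were -0.15 for Wnt7b, also the other direction, -0.042 for Wnt9b and 0.32 for Wnt4, and with 10 CPM added Wnt9b was at -0.32. In the joint classes thinning to 2000 UMIs gave 0.49 for Wnt7b, and the cause was not tested. Of 60 shares of a ligand's UMIs in its main class 41 stayed within their interval. Joint classes, which are narrower by construction, gave (exposed, then control) 90.0% and 96.2% for Wnt9b, 40.9% and 45.4% for Wnt11, 34.2% and 38.3% for Wnt7b, 47.8% and 41.6% for Wnt4, 46.1% and 52.1% for Rspo1, and 83.9% for Rspo3 in the control library. Thinning gave 54.9% and 57.8% for Wnt11, 36.1% for exposed Wnt7b, 94.4% and 93.8% for Wnt4, and 92.3% for control Rspo3. Without the 5 richest cells exposed Wnt11 was at 58.1%, and without cells of a hybrid score over 1 exposed Wnt4 at 95.7%. The percent of all genes past the fold moved with its rule in 18 of 21 cases: at a limit 25% above 1, in place of 50%, it was 39.5% in the authors' distal, 17.7% in the nephrogenic and ureteric-like and 15% in the stroma-like class, and 18% in joint progenitor-like, 17.2% in differentiating, 25.3% in ureteric and 15.2% in stroma-like cells. With at least 50 UMIs it was 2.77% in the authors' stroma-like class, and 2.77% in joint progenitor-like, 2.78% in differentiating, 5.18% in ureteric and 2.55% in stroma-like cells. With at least 1 UMI it was 20.1% in the authors' distal and 9.94% in the stroma-like class, and 10.2% in joint progenitor-like, 7.68% in differentiating, 13.2% in ureteric and 10.8% in stroma-like cells. Depth limits Wnt9b and Wnt7b most, with 130 and 196 UMIs in the exposed library and 186 and 303 in the control library.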
